A study of Mus musculus with 2 samples.

Results

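The genes described here encode the enzymes that build cholesterol and fatty acids and the proteins that regulate them. They were chosen by gene symbol, 29 genes in all: 15 of sterol synthesis, 9 of fatty acid synthesis, and 5 that regulate these pathways or move sterols. The arrays carried 44 probes for them, among 55681 probes in all, and all 29 genes were measured among 30864 features, a feature being a gene or a probe without a gene symbol. The samples were total RNA of isolated pancreatic islets from C57BL/6J mice aged 8 weeks. Both groups had surgery and were examined 3 days later: one had 60% of the pancreas removed (pancreatectomy, Px), the other a sham operation. Each group was measured on 4 one-colour arrays, numbered here in the order of their slide positions, and the labels do not say if a group's 4 arrays are separate animals, pools or repeats of one preparation. All p-values below rest on array-to-array spread, part of which may be technical.

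Cholesterol is built from acetyl-CoA by way of mevalonate, squalene and lanosterol, and fatty acids from acetyl-CoA by way of malonyl-CoA. When the membrane of the endoplasmic reticulum holds little sterol, the escort protein Scap carries the precursors of the transcription factors encoded by Srebf1 and Srebf2 to the Golgi, where they are cut and released to the nucleus. When sterol is plentiful, Insig1 holds Scap back. Both factors switch on genes of both pathways, and Insig1 itself is one of their targets. In beta cells citrate exported from mitochondria feeds the synthesis of malonyl-CoA, a step long studied for its link to insulin secretion, and excess membrane cholesterol is known to disturb secretion.

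The promoters were searched because many of these genes share known regulatory elements, and the stretches below show them where RefSeq places the start of the gene. RefSeq promoter windows (GRCm38.p6, 250 bases before to 50 after the start) matched 22 of the 29 genes by symbol. Fads1, Stard4, Scd2, Fdps, Scd1, Fdft1 and Sqle were not matched. Capitals mark a sterol regulatory element (TCACNCCAC) or a CCAAT box, which reads ATTGG when it lies on the opposite strand, with 15 bases on each side. In the Fasn stretch a CCAAT on the strand of the gene overlaps the marked ATTGG, and its first bases are left in lower case. The stretches, 5′ to 3′ on the strand of the gene, lie at chr13:119690199-119690237 (plus strand) for the first and chr13:119690291-119690325 (plus) for the second of Hmgcs1. They lie at chr13:8885546-8885580 (plus) for Idi1, chr10:76531528-76531562 (plus) for Lss, chr5:28071181-28071215 (plus) for Insig1 and chr11:120824587-120824621 (minus) for Fasn.
Hmgcs1 sterol regulatory element: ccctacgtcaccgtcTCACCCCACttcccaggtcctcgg
Hmgcs1 CCAAT box: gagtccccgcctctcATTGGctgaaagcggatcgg
Idi1 CCAAT box: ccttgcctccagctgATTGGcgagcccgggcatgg
Lss CCAAT box: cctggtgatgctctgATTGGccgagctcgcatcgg
Insig1 CCAAT box: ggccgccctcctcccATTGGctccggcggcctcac
Fasn CCAAT box: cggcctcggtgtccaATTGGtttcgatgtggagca

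Each of 4 motifs was searched on both strands, and no match of one overlapped a match of another in the windows of these genes. CCAAT was found in 17 of 22 (77.3%), against 41.1% of all 27025 genes with a window, and in 11 of the 12 sterol genes. GGGCGG, a GC box, was found in 17 of 22, against 38.2% of all genes, and CACGTG, an E-box, in 5 of 22, against 8.09%. TCACNCCAC was found in 1 of 22, Hmgcs1, against 1.44% of all genes. A match describes the letters of the window, not a bound site. Only exact letters within the windows were searched, so a missing match does not show that an element is absent. A gene with several windows was counted if any of them held the motif.

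None of the 29 genes passed the test after pancreatectomy: with limma over all features and Benjamini-Hochberg adjustment, 0 rose and 0 fell at an adjusted p under 0.05. Over the whole array 194 of 30864 features (0.629%) passed, 168 higher and 26 lower. That split was 130 and 48 with the arrays scaled on their medians, and 18 and 0 without scaling. At an unadjusted p under 0.05, 3 of the 29 genes were counted (Acacb, Scap and Stard4), while 3242 features (10.5%) were. The lowest adjusted p among the 29 was 0.345, and none passed under any alternative that gave a test. The change was positive for 12 of the 29, against 45.1% of all features, and negative for 17, against 54.9%. The median log2 change of the 29 was -0.037, and that of all features was also -0.037. In RNA of whole islets, fewer cells of a type and less RNA per cell cannot be told apart.

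The intervals around these changes show what 4 arrays against 4 could resolve. For 28 of the 29 genes the 95% interval of the log2 change lay between -1 and 1, that is within 2-fold either way, as it did for 73.8% of all features. Scd1 was the exception. Within 1.5-fold either way lay the intervals of 13 of the 29, among them 10 of the 15 sterol genes, against 29.3% of all features. The median standard error of the change was 0.19 for the 29 genes and 0.22 for all features.

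**Figure D1:**
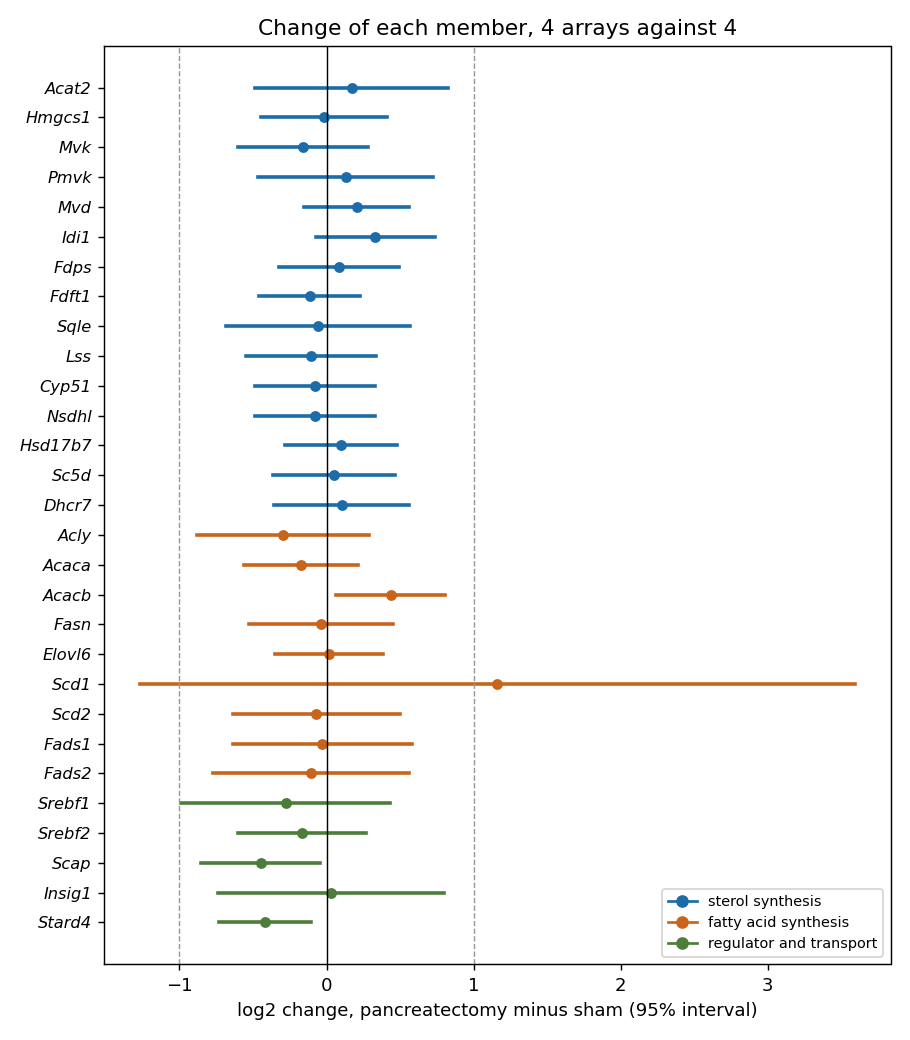
Log2 change of each of the 29 genes, pancreatectomy minus sham (points), with its 95% interval (lines), for 4 arrays in each group. Colours mark sterol synthesis, fatty acid synthesis, and regulators and transport; dashed lines mark a 2-fold change. All intervals but that of Scd1 lie between the dashed lines, and those of Acacb, Scap and Stard4 lie to one side of 0 before any adjustment.

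The arrays themselves differed in ways that touch these genes. Probes well above background made up 48.1% (sham 3) to 71.4% (Px 1) of each array. On the 1 slide used, the sham arrays filled columns 1 and 2 and the Px arrays columns 3 and 4, and an effect of column cannot be told apart from one of group. The 2 slide rows each held both groups. All 10 beta-cell markers and all 6 markers of other islet cells passed the filter on dim probes, and so did 12 of 12 acinar genes. The beta-cell markers had a median log2 change of -0.40, with 9 of 10 negative and none past the test. Most liver markers were high on sham 4, Px 1 and Px 4. Albumin (Alb) read a log2 signal of 13.79, 14.89 and 12.62 there, against 2.11 to 4.90 on the other 5 arrays. Px 3 carried B-cell and plasma-cell transcripts and most gut markers, but Vil1 (12.86) and Cdh17 (3.56) lay within the sham range there. The gut marker Fabp1 read 11.13 on Px 3, less than on sham 4, Px 1 and Px 4 (11.72 to 13.65). Fibroblast genes and most macrophage genes were high on Px 1 and Px 3. Of the macrophage genes, Itgam was lowest on Px 1 (13.04) and Px 3 (13.21), and C1qa lay within the sham range on both.

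In sterol synthesis 0 of 15 genes rose and 0 fell. The sham and Px arrays overlapped for all 15, while 5.29% of all features were lower and 2.99% higher on every Px array. The median log2 change was 0.051, with 8 positive and 7 negative. The changes ran from -0.16 for Mvk, mevalonate kinase, to 0.33 for Idi1. The enzymes that make mevalonate precursors, the thiolase Acat2 (0.17) and Hmgcs1 (-0.017), and the kinases and decarboxylase that process mevalonate, Mvk, Pmvk (0.13) and Mvd (0.21), all had standard errors of 0.16 to 0.29. Fdps, which makes farnesyl diphosphate, differed by 0.085 and Fdft1, squalene synthase, by -0.12. Beyond squalene, the differences were -0.058 for the epoxidase Sqle, -0.11 for lanosterol synthase Lss, -0.080 for the lanosterol demethylase Cyp51 and -0.077 for Nsdhl. Those of the late steps were 0.098 for Hsd17b7, 0.051 for the desaturase Sc5d and 0.10 for the reductase Dhcr7.

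Idi1, the isomerase that balances the pair of isoprene building blocks, had the largest difference among the sterol genes. Its probe (mm9, chr13:8891524-8891583, plus strand) read log2 signals of 10.28, 10.37, 9.87 and 10.15 on the sham arrays and 10.63, 10.73, 10.17 and 10.47 on the Px arrays. Px 1, Px 2 and Px 4 lay above every sham array, and Px 3 lay between sham 4 and sham 1. The difference of 0.33 ± 0.18 (SE, n = 4 and 4), a 1.26-fold higher level, did not pass (limma adjusted p = 0.563). It was 0.35 within slide row 1 and 0.31 within slide row 2, but 0.16 with array weights and 0.56 without the 3 liver-high arrays and Px 3. That last setting left Px 2 as the only Px array.

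Hmgcs1, which makes HMG-CoA, and Sqle, a rate-controlling step of the later pathway, varied within each group more than between groups. Hmgcs1 read 11.93, 11.72, 12.22 and 11.89 on the sham arrays and 11.81, 12.26, 11.59 and 12.04 on the Px arrays. Sqle read 13.31, 13.60, 14.24 and 13.33 on sham and 13.24, 13.95, 13.16 and 13.91 on Px. In both genes sham 3 and Px 2 were the highest of their groups and Px 3 the lowest of all 8 arrays. The means differed by -0.017 ± 0.19 for Hmgcs1 (95% interval -0.44 to 0.41) and by -0.058 ± 0.28 for Sqle (-0.68 to 0.57). The table of probes places Hmgcs1 on an unplaced stretch of chromosome 13 in mm9.

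The low reading on Px 3 was shared by most of the sterol genes. Of the 15, 9 (60.0%) were lowest on Px 3, which was the lowest array for 13.1% of all features, and 6 (40.0%) were highest on sham 3, against 8938 of the 30864 features. The mean log2 difference of the 15 genes from their sham means was -0.24 on Px 3, and it was 0.12, 0.13 and 0.15 on Px 1, Px 2 and Px 4. On the sham arrays it was -0.11, -0.055, 0.19 and -0.021. The Px arrays were thus spread more widely than the difference between groups. The low reading on Px 3 was not particular to the sterol genes. Their median difference there was -0.30, against -0.35 for the fatty acid genes and -0.57 for the regulator and transport genes. For all features it was -0.12. Markers of B and plasma cells were on average 6.04 log2 units above their sham mean on Px 3, and gut markers 3.92. Fibroblast markers were on average 2.28 and macrophage markers 1.35 above it on Px 3, and 3.01 and 1.72 above it on Px 1. Acinar genes were lowest on sham 3 (-1.66) and highest on Px 3 (1.26), whereas beta-cell markers were highest on sham 3 (0.39) and low on Px 3 (-0.48) and Px 1 (-0.60). The part of these transcripts in the sterol readings was not tested. Without Px 3 the median sterol change was 0.14, and still none passed.

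Sham 3 and Px 3 lie in the same slide row, and the direction of the sterol genes differed between rows. Within slide row 1, 13 of the 15 sterol genes were higher in Px (median 0.18), and within slide row 2, 3 of 15 were (median -0.15). Of all 30864 features, 12807 were higher in Px within row 1 and 14795 within row 2. The sign was opposite between the rows for 10 of the 15 (66.7%) and for 41.4% of all features. Acat2 was the most divided, with a difference of 0.78 in row 1 and -0.44 in row 2. Mvd, Idi1 and Fdps were positive in both rows. Each row holds 2 arrays of a group, so these are values without a test.

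**Figure D2:**
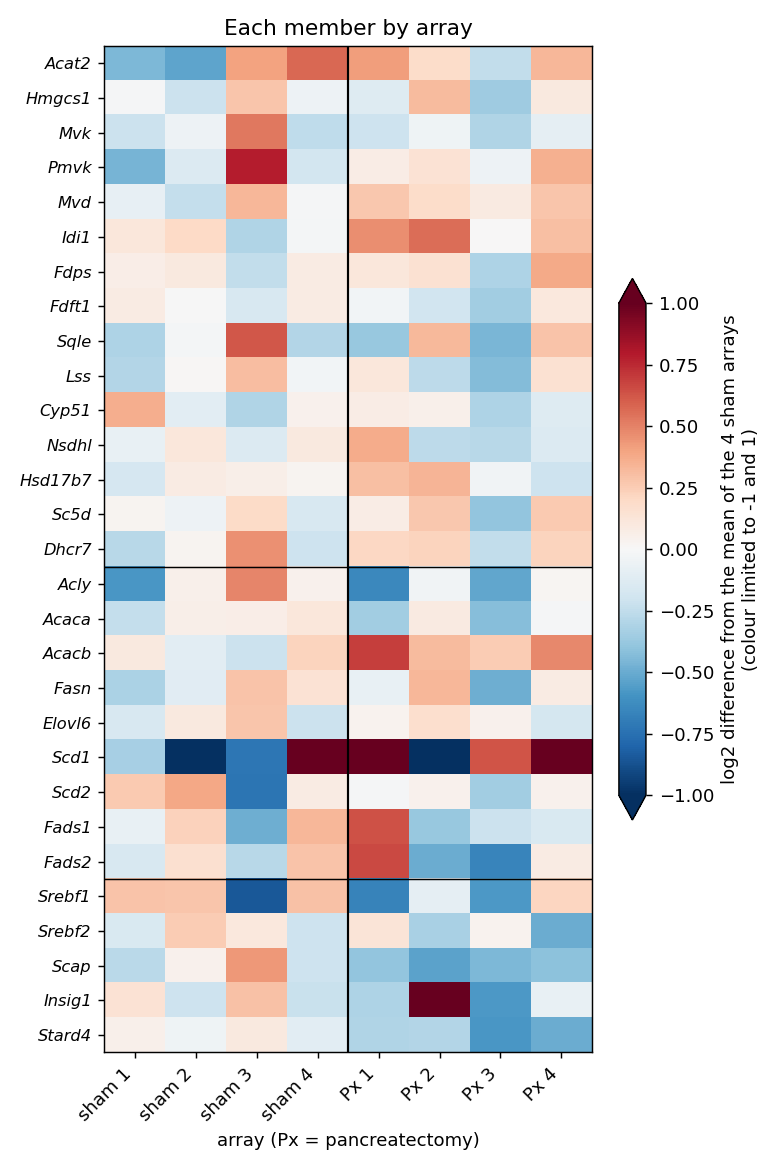
Each gene (rows, grouped as sterol synthesis, fatty acid synthesis, then regulators and transport) on each array (columns), coloured by its log2 difference from the mean of the 4 sham arrays, with colours limited to -1 and 1. Px 3 is the lowest array for 9 of the 15 sterol genes, and Scd1 is beyond the colour limits on 5 arrays.

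Fatty acid synthesis had the widest range of changes, from -0.30 for Acly to 1.16 for Scd1, with a median of -0.037, and again 0 of 9 genes rose or fell. The change was positive for 3 and negative for 6. Acly, which splits exported citrate into acetyl-CoA, differed by -0.30 ± 0.26, and Acaca, the cytosolic acetyl-CoA carboxylase, by -0.18 ± 0.17. Fasn, the synthase that builds palmitate, differed by -0.037 ± 0.21, and Elovl6, which lengthens it, by 0.019 ± 0.16. The desaturases of polyunsaturated fatty acids, Fads1 and Fads2, differed by -0.030 ± 0.27 and -0.10 ± 0.29. Both were highest on Px 1 (9.47 and 7.06), followed by sham 4 (9.17 and 6.69). Without the 3 liver-high arrays the Fads2 difference was -0.48. The arrays of Acly, Acaca, Fasn, Elovl6, Fads1 and Fads2 overlapped between the groups.

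Acacb, the acetyl-CoA carboxylase of the outer mitochondrial membrane, whose malonyl-CoA restrains fatty acid import into mitochondria, was the only member whose Px arrays all lay above its sham arrays. Its probe (mm9, chr5:114700702-114700761, plus strand) read 6.87, 6.66, 6.56 and 6.99 on sham and 7.46, 7.09, 7.02 and 7.25 on Px. The groups did not overlap, with sham 4 the nearest to the Px arrays, and 2.99% of all features had arrays apart in this direction. The difference was 0.44 ± 0.16 (SE, n = 4 and 4), a 1.35-fold higher level. The limma p was 0.026 before and 0.411 after adjustment. The difference was 0.36 without the 3 arrays that carried liver transcripts, 0.51 within slide row 1 and 0.36 within row 2. A second probe, above background on 4 of 8 arrays, differed by 0.042 ± 0.73, and with the probes averaged the difference was 0.24.

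Scd1 and Scd2 encode stearoyl-CoA desaturases, which make monounsaturated fatty acids, and Scd1 is abundant in liver and fat. Scd1 (mm9, chr19:44469387-44469446, minus strand) read 6.64, 5.82, 6.25 and 9.20 on sham and 10.59, 5.62, 7.61 and 8.74 on Px. Its 3 highest arrays, Px 1, sham 4 and Px 4, were the 3 with high liver transcripts. The difference of 1.16 ± 1.07, with a 95% interval of -1.27 to 3.59, did not pass (adjusted p = 0.732).

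Most liver markers were high on the same arrays as Scd1, but Fga, Ttr and Tat were not. Fga (8.38) and Ttr (17.41) were highest on sham 1. Tat read 8.83 to 9.30 on the 3 liver-high arrays and 8.49 to 9.19 on the other 5. All 13 liver markers were measured. Their mean difference from sham arrays 1 to 3 was 5.51 on sham 4, 5.56 on Px 1, 4.80 on Px 4 and 0.79 on Px 3. Their summed linear signal ran from 112341 to 289459 on sham and from 106207 to 271882 on Px. Ttr, which islets also express, made up 32.8% to 47.4% of that sum on the 3 liver-high arrays and 87.8% to 92.4% on the other 5. None of the 13 was at 0. Of the fat-cell markers, Adipoq was above background on 0 of 8 arrays and Plin1 on 3. The 7 of 10 that were measured had sums of 1052 to 2316 on sham and 1848 to 3901 on Px. Among them Fabp4, a fatty acid carrier of fat cells also found in macrophages and capillaries, was above background on all 8 arrays and differed by 1.02 ± 0.32 (limma adjusted p = 0.321). Car3, a carbonic anhydrase that liver also expresses, read 10.49 on sham 4, 9.93 on Px 1 and 7.45 on Px 4, against 1.13 to 4.59 on the other arrays. Without the 3 liver-high arrays the Scd1 difference was 0.38. Without Px 3 as well it was -0.62, a value that rests on Px 2 as the only Px array left. Leaving out Px 1 alone gave 0.34, leaving out Px 2 alone 2.00, and leaving out sham 4 alone 1.90. How much of the Scd1 signal came from liver RNA was not tested.

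Scd2, the form prominent in brain, did not follow these arrays. It read 12.72, 12.85, 11.73 and 12.54 on sham and 12.45, 12.50, 12.12 and 12.50 on Px. Sham 3 and Px 3 were low, and the liver-high arrays lay among the others. The difference was -0.069 ± 0.25 (95% interval -0.64 to 0.50).

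**Figure D3:**
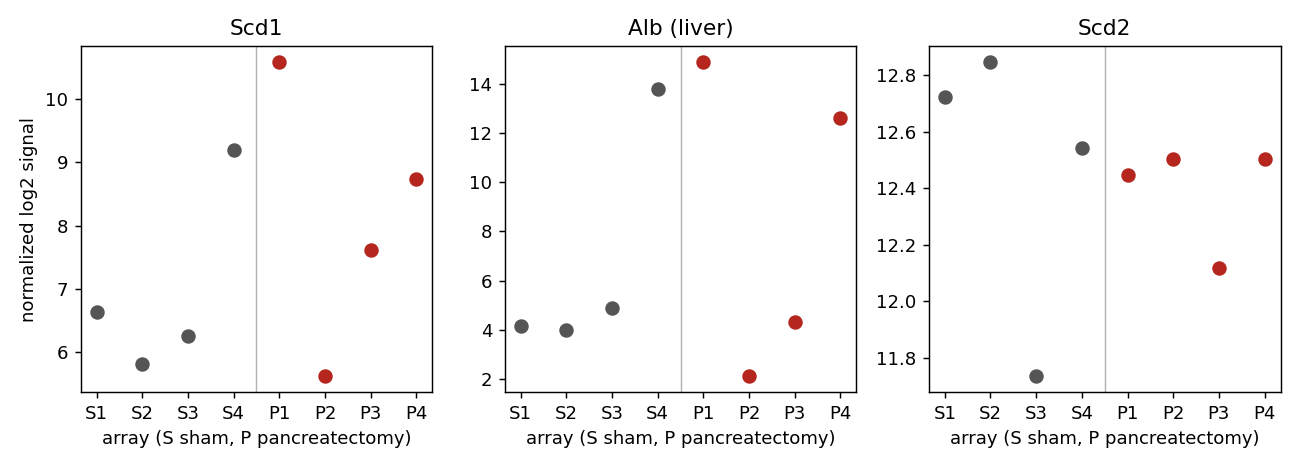
Normalized log2 signal of Scd1, of the liver marker Alb and of Scd2 on each array (S, sham; P, pancreatectomy; each panel has its own scale). Scd1 is highest on S4, P1 and P4, the arrays on which Alb is between 12.62 and 14.89, and Scd2 is not.

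The regulators and the sterol carrier had a median log2 change of -0.28, with 4 of 5 negative, and none passed. Srebf1, whose product mainly drives fatty acid genes, differed by -0.28 ± 0.31, and Srebf2, whose product mainly drives sterol genes, by -0.17 ± 0.19. Srebf1 read 8.84, 8.83, 7.71 and 8.85 on sham and 7.89, 8.47, 7.99 and 8.77 on Px. Sham 3 was the lowest of the 8 arrays, more than 1 log2 unit below the other sham arrays, and the Px arrays lay between. Within slide row 1 Srebf1 differed by -0.66, and within row 2, which holds sham 3, by 0.098.

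Scap was lower on every Px array. It read 12.22, 12.53, 12.92 and 12.28 on sham and 12.09, 11.95, 12.04 and 12.08 on Px (mm9, chr9:110287280-110287339, plus strand). The SD was 0.064 on the Px arrays and 0.32 on the sham arrays. The difference of -0.45 ± 0.18 (SE, n = 4 and 4), 1.36-fold lower, had an unadjusted p of 0.034 and a limma adjusted p of 0.431. It was -0.36 in slide row 1 and -0.54 in row 2, and -0.30 without sham 3, the highest array.

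Stard4, a carrier that moves cholesterol between membranes, was also lower on every Px array by its brighter probe, with 9.558, 9.464, 9.601 and 9.400 on sham and 9.21, 9.21, 8.92 and 9.01 on Px. The difference was -0.42 ± 0.14, 1.34-fold lower, with an adjusted p of 0.345. The second Stard4 probe read 5.45, 5.18, 5.01 and 5.30 on sham and 5.99, 5.80, 5.62 and 4.996 on Px, the opposite direction (0.36 ± 0.23). With the probes averaged the difference was -0.028, so the arrays give no single direction for Stard4. Arrays apart in the lower direction, as for Scap and the brighter Stard4 probe, occurred in 5.29% of all features. The median of the beta-cell markers, -0.40, had the same sign, and its part in these values was not tested.

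Insig1 had one high array. It read 8.77, 8.42, 8.92 and 8.402 on sham and 8.32, 9.70, 8.06 and 8.55 on Px. Px 2 lay above all others, the other 3 Px arrays lay within or below the sham range, and the means differed by 0.030 ± 0.34. Without Px 2 the difference was -0.32 (adjusted p = 0.585). Hmgcs1 was also highest on Px 2, while Scap was lowest there.

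**Figure D4:**
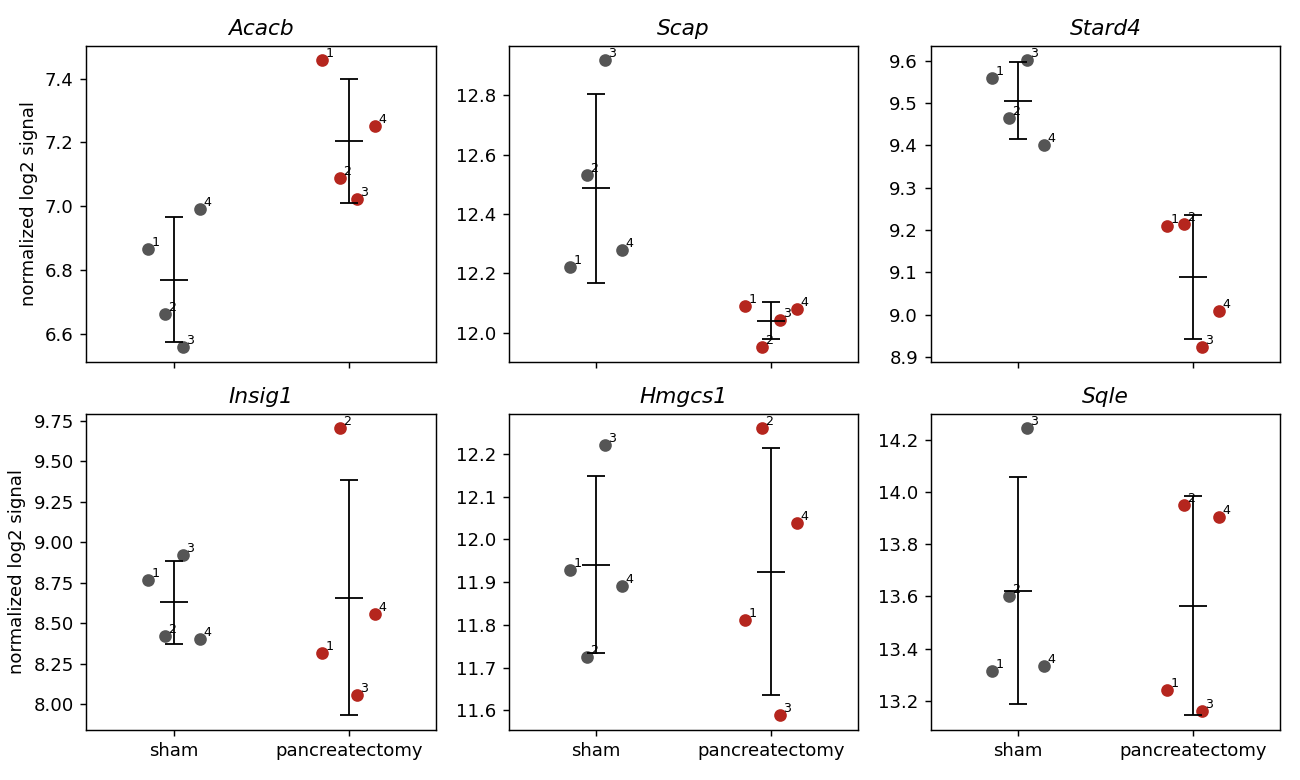
Normalized log2 signal of 6 genes on the 4 sham and 4 pancreatectomy arrays (points, numbered by array), with the mean and SD of each group (bars; each panel has its own scale). The groups do not overlap for Acacb, Scap and Stard4 and overlap for Insig1, Hmgcs1 and Sqle, in which Px 2 is the highest and Px 3 the lowest of the Px arrays.

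Where a gene had several probes they often did not point the same way. Of the 44 probes 43 were kept, and 11 genes had more than 1 kept probe, of which 6 had all probes of one sign and 5 had probes of both signs. Beside Stard4, these were Srebf2 (-0.17 and 0.30), Fads2 (-0.10 and 0.14), Hsd17b7 (0.098, 0.081 and -0.36) and Acaca, whose 4 probes ran from -0.18 to 0.096. The table of probes places one Acaca probe (-0.098) on chromosome 12 and the others on chromosome 11. A dim Fdft1 probe, above background on 3 sham arrays and 1 Px array, differed by -0.49 ± 0.19, against -0.12 for the brighter one. The second Hmgcs1 probe was above background on no array. No kept probe passed over the 37491 probes tested, with a lowest adjusted p of 0.330.

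**Figure D5:**
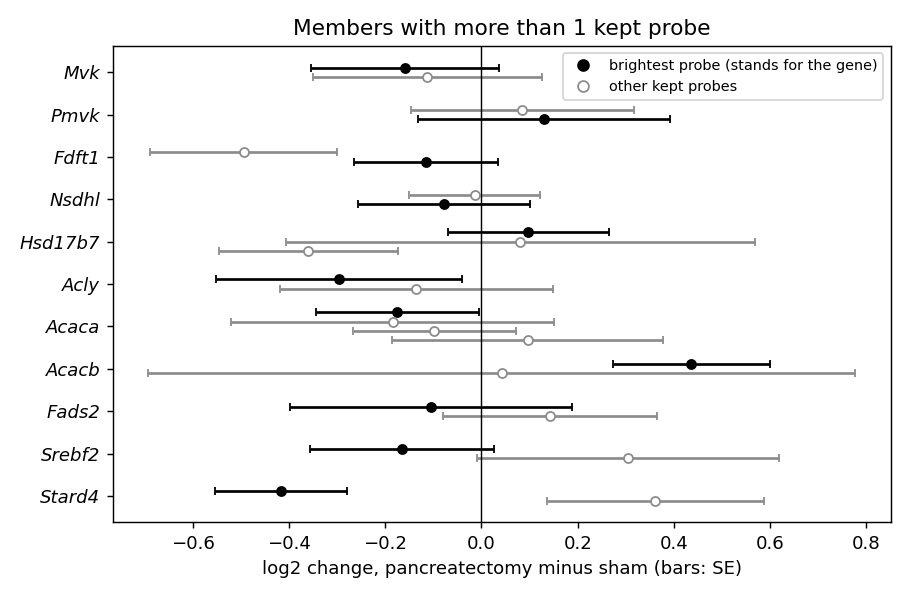
Log2 change, pancreatectomy minus sham, of each kept probe of the 11 genes with more than 1 (points), with its standard error (bars). Filled points are the brightest probe, which stands for the gene. For Hsd17b7, Acaca, Fads2, Srebf2 and Stard4 the probes lie on both sides of 0.

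In 5 companion lists of neighbouring pathways, 0 genes passed in limma. Of the other sterol enzymes, 9 of 10 were measured, with a median of -0.018 and 7 negative, 1 at an unadjusted p under 0.05 (against 10.5% of all features), and none had arrays apart. Of the further proteins that control the sterol-regulated factors, 11 of 11 were measured, with a median of -0.076. Of these, 0 had an unadjusted p under 0.05, and none had arrays apart. Among all features 5.29% had arrays apart in the lower direction and 2.99% in the higher.

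Among 19 genes of cholesterol uptake, trafficking and efflux, all measured, the median was -0.043, 2 had an unadjusted p under 0.05 (10.5% of all features did), and 4 were lower on every Px array (5.29% of all features were). Lrp8, a lipoprotein receptor, had the largest of these differences. It read 7.56, 7.83, 8.12 and 7.77 on sham and 7.06, 7.16, 6.88 and 7.32 on Px, a difference of -0.71 ± 0.17 (adjusted p = 0.161). Its nearest arrays, sham 1 and Px 4, were 7.56 and 7.32. Npc2, which carries cholesterol out of lysosomes, differed by -0.38 ± 0.15, and Nr1h2, an oxysterol-activated nuclear receptor, by -0.29 ± 0.14. None of the 19 was higher on every Px array (2.99% of all features were).

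Of 28 further genes of fatty acid synthesis and esterification, 27 were measured, with a median of -0.011, 2 had an unadjusted p under 0.05 (against 10.5% of all features), and 3 were lower on every Px array (against 5.29%). These were Mid1ip1, which activates acetyl-CoA carboxylase (-0.38 ± 0.14), Agpat2, an acyltransferase of glycerolipid synthesis (-0.29 ± 0.14), and Mcat, of mitochondrial fatty acid synthesis (-0.29 ± 0.13). The 2 largest changes of the list were positive, in genes whose arrays overlapped and which are named after their values were seen. Thrsp, a lipogenic nuclear protein, differed by 1.15 ± 0.60 (limma adjusted p = 0.547), and Fads3, of the desaturase family, by 0.94 ± 0.32 (adjusted p = 0.361). Thrsp was highest on Px 1 (11.16), Px 4 (10.54) and sham 4 (10.35), the 3 liver-high arrays. Fads3 was highest on Px 3 (9.40) and Px 1 (9.31), where fibroblast and most macrophage markers were high. The part of other cell types in these values was not tested. Fatty acid oxidation had the lowest median of the 5 companion lists, -0.12, with 13 of its 15 genes negative, against 54.9% of all features, and 1 at an unadjusted p under 0.05, against 10.5%. Cpt2, which completes fatty acid import into mitochondria, differed by -0.44 ± 0.20 and Ppard, a fatty acid-activated nuclear receptor, by -0.30 ± 0.13, and these 2 of 15 were lower on every Px array, against 5.29% of all features. Their adjusted p-values were 0.502 and 0.461.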

How the data were processed

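Total RNA was labelled with Cy3 and hybridised to 8 Agilent arrays. The deposited scanner files hold an intensity per spot, per the file headers from Feature Extraction 10.7.3.1 (version 9.1 in the submitters' processing notes), background-subtracted and detrended within each array. The authors' deposited table, made with GeneSpring GX 12.5 per the file headers, holds group averages on a log2 scale, and served for symbols, mm9 positions and a check of differences (slope 0.999, r = 0.984 across features). The sham label repeats a slide position, while its files hold 4 different positions. Values here are log2 of the processed signal minus the array's 75th percentile, with the mean percentile added back. Outlier spots were left out. Probes well above background on at least 4 arrays, with at least 3 values per group, were kept, and the brightest probe stands for a gene. Symbols were updated through Entrez IDs (30994 of 33325 probes matched). Differences were tested with limma 3.58.1 in R 4.3.3 over all features, with Benjamini-Hochberg adjustment. The code was tried on simulated data whose planted changes exceeded that of every member, so its power for smaller changes was not examined. The normexp alternative used median signals. The number of arrays limits the precision. The genes and lists were chosen with earlier results of these data known. All members are named. Of companion lists, genes past the threshold and the 3 largest changes with arrays apart are named. Alternatives covered scaling, background, filters, probe averaging, slide row, array weights, an intensity trend and leaving out arrays.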

Additional observations from a re-analysis of the deposited data

Results flagged for a closer look

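Of 58 groups of 4 arrays examined (29 genes in each condition), 5 held an array far from the other 3, and chance alone places about 1 in 20 groups there. Sham 3 read 12.28 for Fdps, against 12.59 to 12.62 on the other sham arrays, and 7.71 for Srebf1, against 8.83 to 8.85. Sham 1 read 11.06 for Acaca, against 11.35 to 11.41. Px 3 read 7.69 for Dhcr7, against 8.14 to 8.15 on the other Px arrays, and 12.12 for Scd2, against 12.45 to 12.50.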

How the results depend on the processing

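None of the 29 genes passed in any of 20 tested alternatives, and the lowest adjusted p was 0.089, for Stard4 with array weights. These alternatives include the setting without the 3 liver-high arrays and Px 3, which left Px 2 as the only Px array. The median change of the sterol genes ran from -0.15 to 0.18 and that of the fatty acid genes from -0.19 to 0.083. Scaling on array medians moved the median of all features to -0.16. The count of 194 features was 18 without scaling, 58 with normexp background, 72 without the filter on dim probes, 126 with probes above background on all 8 arrays, 122 with slide row as a block and 768 with array weights. It was 0 in limma without the 3 arrays with liver transcripts (1354 at an unadjusted p under 0.05), where fewer arrays were tested. Leaving out 1 array gave 59 to 184, among them 91 without sham 1, 59 without sham 2, 95 without sham 4, 129 without Px 1 and 62 without Px 4. The cause of these differences was not tested. No paired analysis was possible because the labels pair no arrays.

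Changes turned sign under some settings, none of them past the threshold. Most of these changes were small, but those of Scd1 (1.16 as reported) and Srebf1 (-0.28) were larger. With median scaling Fdps was -0.038, Hsd17b7 -0.026, Sc5d -0.072, Dhcr7 -0.022, Elovl6 -0.10 and Insig1 -0.094. With quantile scaling Hmgcs1 was 0.060, and with normexp background Fads1 was 0.011. With array weights Hmgcs1 was 0.014, Fdps -0.062 and Insig1 -0.033. With probes averaged Hsd17b7 was -0.060, Fads2 0.019 and Srebf2 0.070. Without the 3 liver-high arrays Pmvk was -0.013, Fdps -0.050, Sc5d -0.12 and Dhcr7 -0.080. Without those and Px 3, Hmgcs1 was 0.30, Sqle 0.23, Cyp51 0.061, Acaca 0.13, Fasn 0.38, Scd1 -0.62, Scd2 0.069 and Srebf1 0.0062. Leaving out 1 array gave -0.0046 to 0.36 for Acat2, -0.13 to 0.095 for Hmgcs1, -0.24 to 0.016 for Mvk, -0.025 to 0.39 for Pmvk, -0.014 to 0.21 for Fdps and -0.19 to 0.15 for Sqle. It gave -0.20 to 0.0027 for Lss, -0.18 to 0.042 for Cyp51, -0.021 to 0.20 for Sc5d, -0.16 to 0.11 for Fasn and -0.053 to 0.11 for Elovl6. For Scd2 it gave -0.31 to 0.060, for Fads1 -0.25 to 0.088, for Fads2 -0.36 to 0.080 and for Insig1 -0.32 to 0.23. Sham 3 was the dimmest array, with 48.1% of its probes above background.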
